A study of Mus musculus with 7 samples.

Results

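The genes described here make up the stress response and export machinery of the endoplasmic reticulum (ER) in kisspeptin cells of the AVPV, the anteroventral periventricular nucleus of the preoptic area. They are 42 genes of 55384 in the table, chosen by their symbols for known function: 5 CREB3-family transcription factors, 7 sensors and factors of the unfolded protein response, 14 ER chaperones and folding factors, 4 genes of ER-associated degradation and 12 genes of the COPII coat. The list was drawn up around the rise of one member, Creb3l1, in the same comparison, so the values of Creb3l1 are given as a description without a test. The question asked is whether that rise came with a rise of the genes that set ER capacity.

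The measured RNA was taken from HA-tagged ribosomes of female C57BL/6 mice, all Kiss1Cre+/Rpl22HA+/+, in which Cre made under the control of Kiss1 switches on a tag on the ribosomal protein Rpl22. The 3 E2 libraries came from females given estradiol and the 4 GDX libraries from ovariectomized females without it, and the labels give no age, dose or duration and do not say whether the E2 females were ovariectomized as well. Each library was a pool of AVPV micropunches from 4 brains, and tagged ribosomes were pulled down from the pool. Cre driven by Kiss1 marks the cells in which that gene is or has been active, and Kiss1 itself responds to estradiol.

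Proteins bound for secretion enter the ER, are folded there by chaperones, and leave in vesicles that the COPII coat forms. When unfolded protein builds up, membrane sensors encoded by Ern1, Eif2ak3 and Atf6 set off the unfolded protein response, which raises chaperone, degradation and export genes through the factors XBP1, ATF4 and ATF6. CREB3-family factors are built like ATF6: they sit in the ER membrane, move to the Golgi and are cut there by the proteases S1P and S2P, which frees a part that enters the nucleus. CREB3L1, also called OASIS, is known from bone and astrocytes, and in the rat hypothalamus from vasopressin neurons, and its relative CREB3L2 is known to raise the COPII gene Sec23a in cartilage.

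Library totals were 30929883 to 33438199 counts in E2 and 29207544 to 36213127 counts in GDX. Kiss1 averaged 415.1 ± 60.8 CPM (counts scaled to library size, SD, n = 3) in E2 and 66.5 ± 31.7 CPM (SD, n = 4) in GDX, and the tagged gene Rpl22 averaged 34.5 CPM in E2 and 30.7 CPM in GDX. Markers of AVPV kisspeptin cells, Kiss1 among them, summed to 2624 to 2727 CPM in E2 and 1597 to 1905 CPM in GDX. The summed level of 6 neuronal markers was 2605 to 2826 CPM in E2 and 2448 to 2843 CPM in GDX. The summed level of 6 astrocyte markers was higher in GDX, at 518 to 606 CPM in E2 and 738 to 2625 CPM in GDX. Of the 6, 3 were lower in every E2 library than in any GDX library, beside 8.06% of all tested genes. None of the 6 passed an adjusted p of 0.05 in the edgeR fit, and Gfap alone was at 1322.7 and 1765.3 CPM in GDX replicates 1 and 4. Sums for 6 oligodendrocyte markers were 2144 to 2586 CPM in E2 and 2393 to 4875 CPM in GDX, and for 5 endothelial markers 88.1 to 142.5 CPM in E2 and 149.8 to 392.7 CPM in GDX. Microglial markers summed to 62.8 to 84.9 CPM in E2 and 59.6 to 77.7 CPM in GDX, ependymal and tanycyte markers to 23.2 to 42.3 CPM in E2 and 40.8 to 80.7 CPM in GDX. Oligodendrocyte precursor markers summed to 61.3 to 77.3 CPM in E2 and 65.6 to 98.9 CPM in GDX, and the choroid plexus genes Ttr and Kl to 70.6 to 86.0 CPM in E2 and 44.1 to 76.0 CPM in GDX. No marker was at 0 in all libraries. Astrocyte markers were highest in GDX replicates 1 and 4, and each count of called genes was also made without these libraries.

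Creb3l1 (ENSMUSG00000027230, chromosome 2, 91982328 to 92024502, minus strand, GRCm38) stood apart from every other gene on the list. It was measured at 94.9, 98.8 and 81.7 CPM in the 3 E2 libraries, against 9.24, 9.12, 10.9 and 9.80 CPM in the 4 GDX libraries, from 2473 to 3079 counts in E2 and 272 to 397 counts in GDX. The lowest E2 library lay far above the highest GDX library, and the GDX libraries lay within a narrow band. The means were 91.8 ± 8.95 CPM in E2 (SD, n = 3) and 9.77 ± 0.814 CPM in GDX (SD, n = 4), a 9.40-fold difference and a log2 fold change of 3.23. In a pull-down from many cells, more cells with the transcript and more transcript per cell cannot be told apart. The GDX libraries with the highest astrocyte sums, replicates 1 and 4, held 9.24 and 9.80 CPM of Creb3l1, and the other GDX libraries 9.12 and 10.9 CPM. Over all alternative fits, among them one without replicates 1 and 4 and one with a non-neuronal marker score as a covariate, the log2 fold change was 3.12 to 3.31. That score did not overlap between the groups, so the covariate fit cannot separate it from treatment. The range is a description only, since the list was drawn up around Creb3l1.

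**Figure D1:**
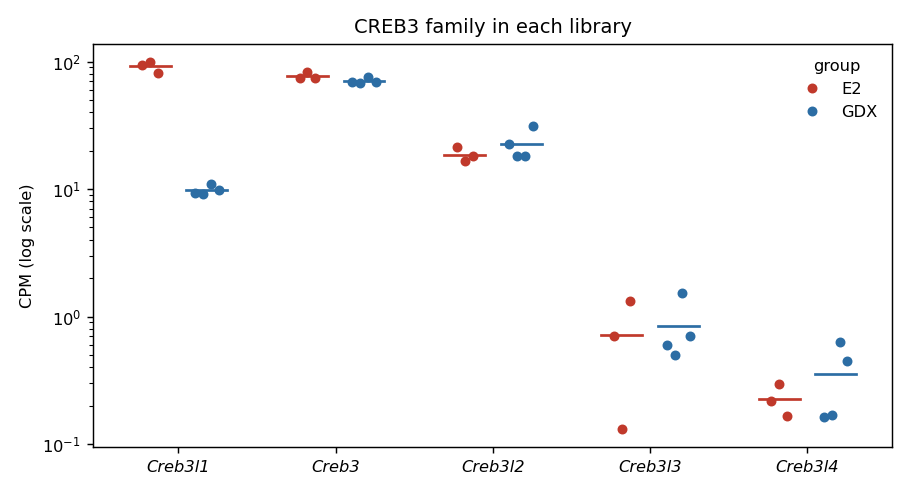
Level of the 5 CREB3-family genes in CPM (log axis) in each of the 3 E2 and 4 GDX libraries; points are libraries and bars are group means. Creb3l1 lies between 81.7 and 98.8 CPM in E2 and between 9.12 and 10.9 CPM in GDX, and the libraries of the other 4 genes overlap between the groups.

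None of the other CREB3 factors was called in either direction, beside 3.88% of all tested genes. Creb3, the founding member of the family, was at 73.9, 83.4 and 73.9 CPM in E2 and at 69.2, 67.6, 75.1 and 69 CPM in GDX, and the groups overlapped. Its log2 fold change was 0.13 ± 0.08 (SE) with an edgeR p of 0.452, adjusted by Benjamini-Hochberg over all tested genes (a gene was called under 0.05). Creb3 shares 360 bp of exon with Tln1 and 133 bp with Gba2, both on the opposite strand, so its level is uncertain in these unstranded libraries. Creb3l2, the closest relative of Creb3l1, was at 21.2, 16.5 and 18.2 CPM in E2 and at 22.7, 18.1, 18.2 and 31.3 CPM in GDX, where replicate 4 was the highest. Its log2 fold change of −0.28 had a 95% interval of −0.70 to 0.15, which is 0.615-fold to 1.11-fold (adjusted p = 0.531). Creb3l3, a factor of liver metabolism, was at 0.132 to 1.32 CPM in E2 and 0.503 to 1.54 CPM in GDX, near the limit of what these libraries measure. Creb3l4, known from prostate and testis, was at 0.165 to 0.297 CPM in E2 and 0.164 to 0.632 CPM in GDX. It is the one member that did not pass the low-count filter.

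Because longer transcripts collect more reads, the balance within the family was compared per kilobase of merged exon. Creb3l1 made up 51.4%, 50.2% and 47.9% of the family's summed CPM per kilobase in the E2 libraries, against 9.83%, 10.1%, 10.7% and 10% in the GDX libraries. Creb3 made up 46.0 ± 1.83% in E2 and 80.2 ± 2.03% in GDX. Creb3l1 thus was a minor CREB3 transcript beside Creb3 in GDX, and in E2 the levels were near each other, at 35.3 CPM per kilobase for Creb3l1 and 32.5 CPM per kilobase for Creb3. The summed level of the 4 other CREB3 genes was 93.6 to 100.3 CPM in E2 and 86.4 to 101.4 CPM in GDX.

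**Figure D2:**
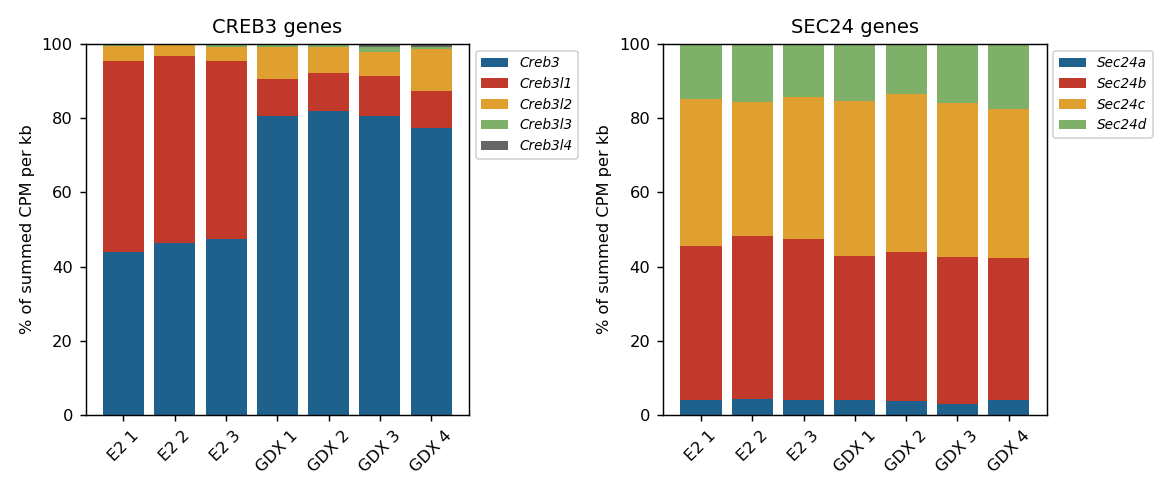
Share of each gene in the summed CPM per kilobase of the CREB3 family (left) and of the 4 SEC24 genes (right), one stacked bar per library, E2 libraries first. Creb3l1 holds 47.9% to 51.4% of the CREB3 bars in E2 and 9.83% to 10.7% in GDX, whereas the SEC24 bars differ by a few percentage points.

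With Creb3l1 left aside, none of the 40 other members that passed the low-count filter was called higher or lower in E2. The same edgeR quasi-likelihood fit called 3.88% of 18282 tested genes (2.55% higher and 1.33% lower). Among these 40 genes 4 (10%) had an unadjusted p under 0.05, beside 16.8% of all tested genes, and the smallest adjusted p was 0.173. The DESeq2 Wald test called none of the 40, where it called 4.1% higher and 4.4% lower of the 16476 genes to which it gave an adjusted p, and limma-voom called none, where it called 3.74% higher and 2.18% lower. Unadjusted p values under 0.05 numbered 4 (10%) with DESeq2, beside 17.8% of all genes, and 6 (15%) with limma-voom, beside 20.9% of all genes. None of the 40 was called in any of the 19 alternative fits. The median log2 fold change of the 40 genes was 0.0047, beside 0.0040 for all tested genes, and 21 of them were above 0 and 19 below. The libraries of 6 of the 40 genes (15%) did not overlap between the groups, beside 16.5% of all tested genes, a share close to the background. E2 was above GDX for Atf6b, Sec23a, Sec24a and Sec24b (8.43% of all tested genes) and below it for Sel1l and Sar1a (8.06%).

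The intervals were narrow for most of these genes. For 37 of the 40 genes the 95% interval of the fold change lay within 1.5-fold in either direction, beside 9160 of 18282 tested genes. The exceptions were Creb3l2, Creb3l3 and Sec16b. Between libraries of the same group, the median coefficient of variation of the 40 genes was 5.94% in E2 and 9.12% in GDX. For all tested genes it was 11.6% in E2 and 15% in GDX. Neither comparison was matched for expression level.

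**Figure D3:**
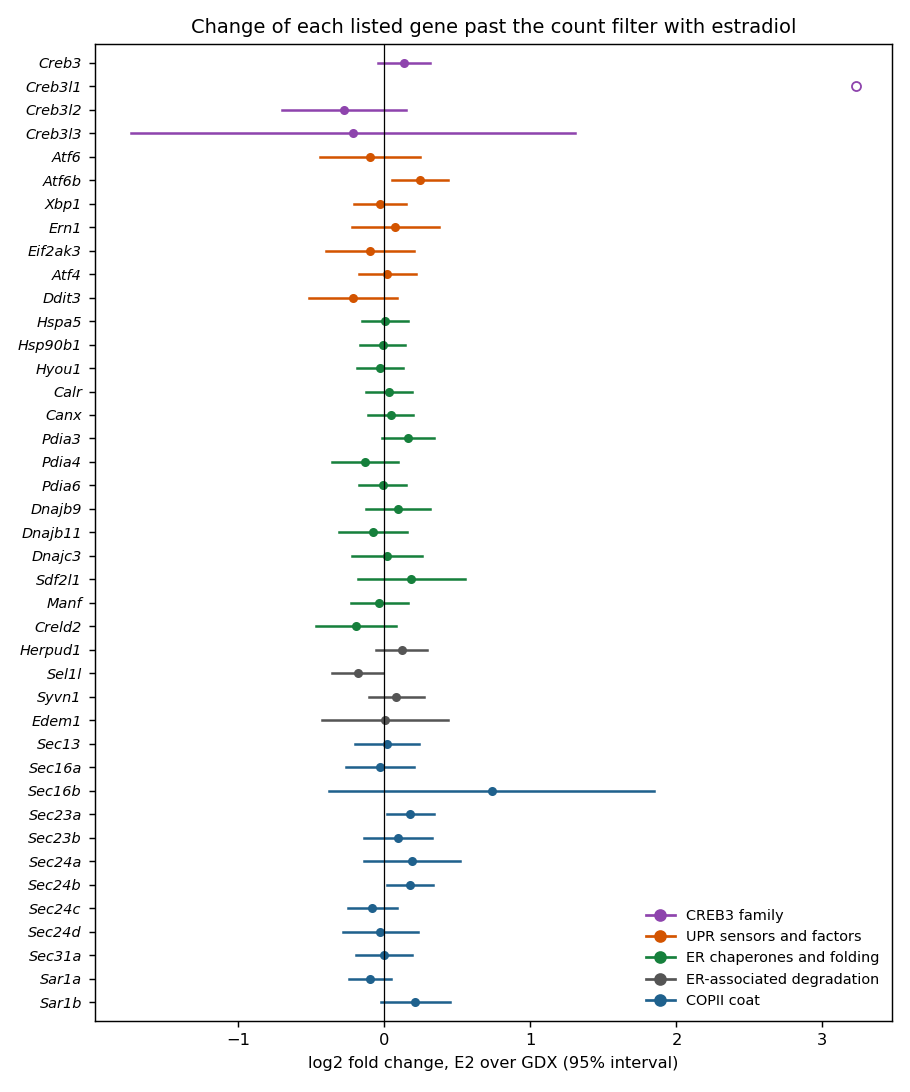
Log2 fold change, E2 over GDX, of the 41 listed genes that passed the count filter, coloured by role; lines are 95% intervals from the edgeR fit, and Creb3l1 is an open circle without interval because the list was chosen on it. Creb3l1 is at 3.23, while the other 40 points lie between −0.28 and 0.74, and the widest intervals belong to the scarce genes Creb3l3 and Sec16b.

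Where 3.88% of all tested genes were called, none of the 7 sensors and factors of the unfolded protein response was called higher or lower. Their summed level was 341.9, 344.0 and 338.1 CPM in the E2 libraries, against 341.9, 338.4, 350.7 and 337.2 CPM in the GDX libraries, so the groups overlapped. Xbp1, whose messenger RNA is spliced by the sensor IRE1 to give the active factor, was at 121.7, 118.0 and 113.6 CPM in E2 and at 113.6, 115.4, 136.0 and 116.9 CPM in GDX (log2 fold change −0.03, 95% interval −0.21 to 0.15, adjusted p = 0.898). Gene counts do not show how much of it was spliced. Atf4, the factor made when the sensor PERK slows translation, was at 85.9 ± 6.96 CPM in E2 and 84.9 ± 6.61 CPM in GDX (adjusted p = 0.953). Ribosome-bound RNA was measured, but the table holds 1 value per gene, without positions along the transcript. Ddit3, which encodes CHOP, a factor that promotes cell death under lasting stress, was at 20.1, 20.6 and 20.2 CPM in E2 and at 23.1, 25.2, 27.5 and 18.4 CPM in GDX. Its log2 fold change was −0.22 (95% interval −0.52 to 0.08, adjusted p = 0.484), and it shares 68 bp of exon with Mars on the opposite strand.

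Among the sensors themselves, Ern1, which encodes IRE1, was at 18.8 ± 0.413 CPM in E2 and 17.8 ± 2.67 CPM in GDX (adjusted p = 0.857). Eif2ak3, which encodes PERK, was at 24.0 ± 2.81 CPM in E2 and 25.7 ± 3.88 CPM in GDX (adjusted p = 0.796). Atf6 was at 31.9, 25.3 and 31.7 CPM in E2 and at 31.7, 29.9, 24.8 and 40.4 CPM in GDX (adjusted p = 0.833). The largest difference in this role was that of Atf6b, the less studied relative of Atf6, at 44.7, 44.8 and 45.4 CPM in E2 and at 37.4, 41.6, 37.2 and 35.5 CPM in GDX. All E2 libraries lay above all GDX libraries, by 0.25 ± 0.09 on the log2 scale, which did not pass (adjusted p = 0.173, over the alternatives 0.124 to 0.768).

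None of the ER chaperone genes, the classic products of this response, was called higher or lower. Together they summed to 4185, 4258.5 and 3925.9 CPM in E2 and to 3871, 3793.7, 4209 and 4356.9 CPM in GDX, and the groups overlapped. Hspa5, which encodes BiP, the main ER chaperone and the textbook readout of ER stress, was at 859.7, 915.6 and 815.3 CPM in E2 and at 834.1, 797.5, 900.5 and 908.6 CPM in GDX. The groups overlapped over most of their ranges, with a log2 fold change of 0.01 and a 95% interval of −0.15 to 0.16, which is 0.901-fold to 1.12-fold (adjusted p = 0.982). Hsp90b1, which encodes the chaperone GRP94, was at 758.5, 761.5 and 712.7 CPM in E2 and at 719.5, 700.4, 761.6 and 822.2 CPM in GDX (95% interval 0.889-fold to 1.1-fold, adjusted p = 0.958). Calr and Canx, whose products calreticulin and calnexin hold newly made glycoproteins, had means of 498.9 and 623.4 CPM in E2 and 487.7 and 604.9 CPM in GDX, with adjusted p values of 0.883 and 0.834.

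The other folding factors were mostly measured less closely, with standard errors up to 0.17 for Sdf2l1, against 0.07 for Hspa5. Of the 14 chaperone genes none was called, beside 3.88% of all tested genes, and none had an unadjusted p under 0.05, beside 16.8%. None was free of overlap between the groups, beside 16.5% of all tested genes, and all 14 intervals lay within 1.5-fold. The largest log2 fold changes were −0.20 for Creld2, a secreted stress-responsive protein (20.9 ± 1.65 CPM in E2 and 23.9 ± 2.89 CPM in GDX, adjusted p = 0.486), and 0.19 for Sdf2l1, a partner of BiP (23.1 ± 3.31 CPM in E2 and 20.3 ± 4.56 CPM in GDX, adjusted p = 0.659). Pdia3, a disulfide isomerase that works with calreticulin and calnexin, came nearest to the threshold at 532.6, 565.4 and 467.5 CPM in E2 and 433.8, 445.6, 489.9 and 498.7 CPM in GDX (log2 fold change 0.16 ± 0.08, adjusted p = 0.362). The BiP co-chaperone genes Dnajb9, Dnajb11 and Dnajc3, the exchange factor gene Hyou1, the disulfide isomerase genes Pdia4 and Pdia6, and Manf, a secreted factor kept in the ER until stress, had adjusted p values of 0.589 to 0.966. Per kilobase of exon, Hspa5 had the highest level on the list, at 204.2 CPM in E2 and 203.4 CPM in GDX.

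Promoters of several chaperone genes are shown because they carry the element through which ATF6 and XBP1 are known to act. The ER stress element is CCAAT, any 9 bases, then CCACG, and the sequences below are from RefSeq on GRCm38.p6, 5′ to 3′ along the gene, with its fixed bases in capitals (CGTGG and ATTGG mark it on the other strand). The 120 bases that end at the start site are given for Hspa5 (chr2:34771970-34772089, plus strand), Hsp90b1 (chr10:86705445-86705564, minus strand) and Herpud1 (chr8:94386309-94386428, plus strand), where the capitals of Herpud1 mark ER stress element II, ATTGG, any 1 base, then CCACG.
Hspa5: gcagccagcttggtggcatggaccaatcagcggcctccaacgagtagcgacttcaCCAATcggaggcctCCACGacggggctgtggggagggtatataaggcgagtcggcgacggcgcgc
Hsp90b1: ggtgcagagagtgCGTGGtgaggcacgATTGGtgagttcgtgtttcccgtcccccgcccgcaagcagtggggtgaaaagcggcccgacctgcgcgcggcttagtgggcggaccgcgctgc
Herpud1: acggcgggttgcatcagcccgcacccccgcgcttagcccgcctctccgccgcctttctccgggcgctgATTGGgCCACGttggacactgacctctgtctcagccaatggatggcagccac

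The other 6 genes with an ER stress element are shown with 8 bases on either side of it: Calr (chr8:84847067-84847101, minus strand), Canx (chr11:50325792-50325826, minus strand), Pdia6 (chr12:17266483-17266517, plus strand), Dnajc3 (chr14:118937819-118937853, plus strand), Creld2 (chr15:88819512-88819546, plus strand) and Syvn1 (chr19:6046524-6046558, plus strand).
Calr: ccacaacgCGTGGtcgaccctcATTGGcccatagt
Canx: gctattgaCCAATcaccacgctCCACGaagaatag
Pdia6: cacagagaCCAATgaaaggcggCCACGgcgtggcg
Dnajc3: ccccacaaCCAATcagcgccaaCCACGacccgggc
Creld2: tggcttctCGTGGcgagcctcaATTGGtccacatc
Syvn1: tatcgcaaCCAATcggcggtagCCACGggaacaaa

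Windows of 250 bases before to 50 after the start were found for 38 of the 42 members, as 44 windows, and each motif was searched on both strands. No window was at hand for Creb3l1, Atf6, Hyou1 and Manf, so their promoters were not searched. The ER stress element was in 8 of the 44 windows (18.2%) and in 0.119% of all 32851 windows in the table. The Hspa5 copy lies 47 to 65 bases before the start, and the window of Hsp90b1 holds 2 copies, the one shown and another 194 to 212 bases before the start. The 8 genes that hold it, Hspa5, Hsp90b1, Calr, Canx, Pdia6, Dnajc3, Creld2 and Syvn1, had log2 fold changes of −0.20 to 0.08 with a median of 0.01, and none was called. The 29 tested members with a window but no such element had a median of 0.02. ER stress element II was in the windows of Herpud1 and Dnajb11 (4.55%, against 0.0365% of all windows), whose log2 fold changes were 0.12 and −0.08. The unfolded protein response core TGACGTGG was in windows of Sec16b, Sec23a and Sec24d (6.82%, against 0.676%). Their log2 fold changes were 0.74, 0.18 and −0.03, none called, with a median of 0.18, against 0.01 for the 34 tested members without it. The cAMP response element TGACGTCA was in none of the 44 (1.79% of all), and the ATF4 core TGATGNAA in the window of Herpud1 alone (2.27%, against 3.97%).

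Genes of ER-associated degradation, which return misfolded proteins to the cytosol, gave no call, beside 3.88% of all tested genes. The degradation genes summed to 352.4 to 380.4 CPM in E2 and 368.2 to 397.9 CPM in GDX. Sel1l, the adaptor of the membrane ubiquitin ligase HRD1, was at 186.6, 162.4 and 183.3 CPM in E2 and at 203.6, 195.5, 188.1 and 218.6 CPM in GDX. Every E2 library lay below every GDX library, with a log2 difference of −0.18 ± 0.08 that did not pass the threshold (adjusted p = 0.264, over the alternatives 0.123 to 0.891). Syvn1, which encodes HRD1 itself, was at 64.5 ± 2.20 CPM in E2 and 60.9 ± 4.59 CPM in GDX (adjusted p = 0.715). Herpud1, a stress-responsive partner of the same complex, was at 104.3, 110.6 and 118.3 CPM in E2 and at 94.8, 107.3, 107.7 and 99.5 CPM in GDX (log2 fold change 0.12, adjusted p = 0.514). Edem1, which picks out misfolded glycoproteins, had a mean of 13.9 CPM in both groups (adjusted p = 0.996).

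**Figure D4:**
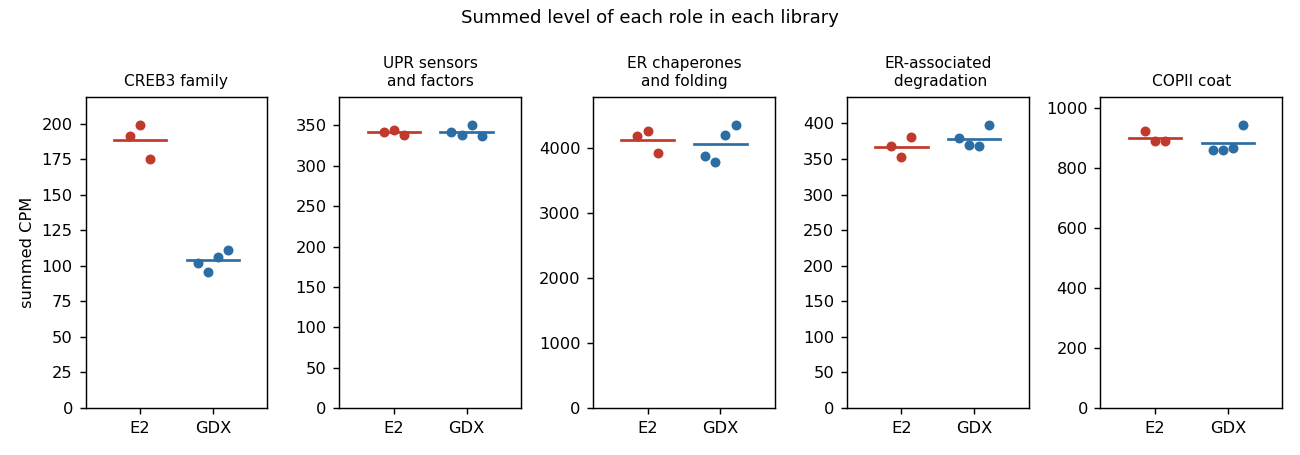
Summed CPM of the genes of each role in each library, with axes from 0; points are libraries (E2 left, GDX right) and bars are group means. The CREB3 sum is 175.3 to 199.1 CPM in E2 and 95.5 to 111.2 CPM in GDX, a difference carried by Creb3l1, and the other 4 sums overlap between the groups.

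The COPII coat, which buds vesicles from the ER, summed to 924.9, 892.7 and 890.7 CPM in E2 and to 860.3, 861.7, 869.3 and 944.9 CPM in GDX, and the groups overlapped through GDX replicate 4. None of its 12 genes was called, beside 3.88% of all tested genes. Of the 12, 2 had an unadjusted p under 0.05, beside 16.8% of all tested genes, and the median log2 fold change was 0.05. Sec23a, the inner coat gene known as a CREB3L2 target, was at 131.1, 129.5 and 125.2 CPM in E2 and at 105.9, 112.7, 113.6 and 122.6 CPM in GDX. All E2 libraries lay above all GDX libraries, by a log2 fold change of 0.18 ± 0.07 that did not pass (95% interval 1.01-fold to 1.26-fold, adjusted p = 0.242, over the alternatives 0.0843 to 0.787). Its paralog Sec23b was at 68.3, 53.2 and 63.5 CPM in E2 and at 54.8, 57.3, 53.5 and 65.9 CPM in GDX (adjusted p = 0.754), and Sec23a held 73.1 ± 2.51% of their summed CPM per kilobase in E2 and 71.9 ± 1.11% in GDX.

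The SEC24 proteins are the coat subunits that choose cargo. Sec24b was at 86.4, 89.9 and 93.9 CPM in E2 and at 80.3, 79.2, 77.3 and 82.6 CPM in GDX, again without overlap, by 0.17 ± 0.07 on the log2 scale (adjusted p = 0.245). Sec24a was at 15.5, 15.6 and 15.5 CPM in E2 and at 15.4, 12.9, 10.7 and 15.4 CPM in GDX, where the nearest libraries were almost level (adjusted p = 0.598). Sec24c and Sec24d had log2 fold changes of −0.08 and −0.03 (adjusted p = 0.668 and 0.946). Per kilobase, Sec24b made up 42.9 ± 1.29% of the 4 SEC24 genes in E2 and 39.2 ± 0.932% in GDX, and Sec24c made up 38.1 ± 1.61% in E2 and 41.5 ± 0.928% in GDX. These shares were examined after the levels were seen and were not tested.

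None of the remaining coat genes was called. Sar1a, which encodes the GTPase that starts coat assembly, was at 171.4, 172.2 and 166.3 CPM in E2 and at 172.8, 180.5, 189.7 and 184.1 CPM in GDX. Its E2 libraries lay just below the GDX libraries (log2 fold change −0.10, adjusted p = 0.517). Its paralog Sar1b leaned the other way, with 48.9, 48.1 and 42.9 CPM in E2 and 36.6, 36.7, 47.0 and 40.8 CPM in GDX (log2 fold change 0.21 ± 0.11, adjusted p = 0.361). The outer coat genes Sec13 and Sec31a had log2 fold changes of 0.02 and 0.00 (adjusted p = 0.965 and 0.991), and Sec16a, a scaffold of ER exit sites, had −0.03 (adjusted p = 0.93). Sec16b, its shorter relative, had the largest log2 fold change of the 40 genes at 0.74, but at 0.758 to 1.20 CPM in E2 and 0.335 to 0.939 CPM in GDX its 95% interval ran from 0.769-fold to 3.6-fold (adjusted p = 0.53).

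Beyond the 42 members, 128 further genes were read from the same fit. Besides genes of ER entry, folding, degradation and transport, they include 19 targets of ATF4 and CHOP. They also include 3 genes listed with the CREB3 and ATF6 proteases and 4 genes tied to CREB3L1 elsewhere. Of the 128 genes, 5 rose (3.91%) and none fell, where 2.55% of all tested genes rose and 1.33% fell. An unadjusted p under 0.05 was found for 25 (19.5%), beside 16.8% of all tested genes. Without GDX replicates 1 and 4 together, 5 rose and 1, Avp, fell. DESeq2 called 7 higher (5.56% of the 126 with an adjusted p) and 3 lower (2.38%), beside 4.1% and 4.4% of all genes. The 3 lower were Bet1, Copz2 and Phgdh. With limma-voom 8 were called higher (6.25%) and 1, Phgdh, lower (0.781%), beside 3.74% and 2.18% of all genes. The median log2 fold change of the 128 genes was 0.06, and for 21.1% of them the libraries did not overlap between the groups (18 higher, 9 lower in E2), beside 16.5% of all tested genes. Of the 128 log2 fold changes 80 were above 0 and 48 below, beside 9279 and 9003 of all tested genes. Summed levels did not overlap for the further degradation genes, at 1914.9 to 1970.8 CPM in E2 and 1751.5 to 1885.6 CPM in GDX. The same held for genes of ER exit, cargo receptors and fusion, at 2751.3 to 2896.5 CPM in E2 and 2549.5 to 2729.9 CPM in GDX. The sums of the remaining further lists overlapped, and no sum was tested.

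The clearest of these was Tmed3, which encodes a p24-family cargo receptor that cycles between ER and Golgi in COPII and COPI vesicles. It was at 84.8, 91.4 and 78.7 CPM in E2 and at 50.3, 50.3, 53.5 and 54.9 CPM in GDX, with no overlap. The log2 fold change was 0.70 ± 0.08 (edgeR adjusted p = 0.000392), and the call was kept in all 19 alternatives (adjusted p 1.85e-11 to 0.0154). It was the 1 gene of 29 on the list of ER exit, cargo receptors and vesicle fusion that rose, where 2.55% of all tested genes rose. Preb, which activates SAR1, and Tfg, an organiser of ER exit sites, did not pass, with log2 fold changes of 0.07 and 0.23 (adjusted p = 0.74 and 0.265). Bet1, on the same list, was at 9.98 to 12 CPM in E2 and 14 to 15.9 CPM in GDX. Its log2 fold change was −0.44 (edgeR adjusted p = 0.11), and DESeq2 called it lower (adjusted p = 0.0373). Of the 29 genes, 4 lay higher in every E2 library and 3 lower, beside 8.43% and 8.06% of all tested genes.

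Of 16 other degradation genes 2 rose, where 2.55% of all tested genes rose. Erlec1, an ER lectin that binds misfolded glycoproteins, was at 101.4, 101.1 and 83.4 CPM in E2 and at 63.1, 64.7, 68.5 and 72.2 CPM in GDX (log2 fold change 0.51 ± 0.09, adjusted p = 0.00817). The Erlec1 call was lost without E2 replicate 1 (log2 fold change 0.46, adjusted p = 0.0632) or 2 (0.46, 0.0559) and with the non-neuronal score as covariate (0.45, 0.184). Ube2j1, the ubiquitin-conjugating enzyme of the ER membrane, averaged 130.4 ± 6.11 CPM in E2 and 103.4 ± 1.97 CPM in GDX (log2 fold change 0.34 ± 0.07, adjusted p = 0.0174). For Ube2j1 the call did not hold without E2 replicate 1 (log2 fold change 0.32, adjusted p = 0.112) or 2 (0.32, 0.0906), without GDX replicate 1 (0.34, 0.0514) or 2 (0.32, 0.0591) and with the covariate (0.35, 0.184). Derl1 and Derl2, channel proteins of the same pathway, did not pass, with log2 fold changes of −0.03 and −0.24 (adjusted p = 0.914 and 0.386).

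At ER entry 1 of 26 genes rose and in the wider folding list 1 of 17, where 2.55% of all tested genes rose. Ssr4, a subunit of the translocon-associated complex, averaged 90.8 ± 11.3 CPM in E2 and 61.7 ± 7.12 CPM in GDX (log2 fold change 0.56 ± 0.11, adjusted p = 0.0137). The Ssr4 call did not hold without E2 replicate 1 (log2 fold change 0.48, adjusted p = 0.113) or 2 (0.54, 0.0798), without GDX replicate 1 (0.53, 0.0528) and with the covariate (0.33, 0.40). Its neighbours at the channel, Sec61a1 and Sec61a2, did not pass, with log2 fold changes of −0.07 and 0.10 (adjusted p = 0.808 and 0.627). Sil1, an exchange factor for BiP, averaged 78.3 ± 3.59 CPM in E2 and 60.2 ± 6.63 CPM in GDX (log2 fold change 0.38 ± 0.10) at the edge of the threshold (adjusted p = 0.0499), and it shares 108 bp and 88 bp of exon with antisense genes of 44 and 36 counts in all. The Sil1 call was lost in 13 of 19 alternatives, among them without each E2 replicate in turn (log2 fold change 0.36 to 0.42, adjusted p = 0.108 to 0.215), without GDX replicate 1 (0.35, 0.152) or 2 (0.34, 0.119) and with the covariate (0.28, 0.548). In the folding list P4hb and Ppib did not pass, with log2 fold changes of −0.02 and 0.00 (adjusted p = 0.944 and 0.999). Ero1l was just outside the edgeR threshold (0.32, adjusted p = 0.0519), at 85 to 100.3 CPM in E2 and 69.9 to 77.9 CPM in GDX. It was called higher by DESeq2 (adjusted p = 0.0118) and limma-voom (0.0213), but not with any E2 replicate left out. Ero1lb leaned the other way and was not called (−0.25, edgeR adjusted p = 0.193).

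**Figure D5:**
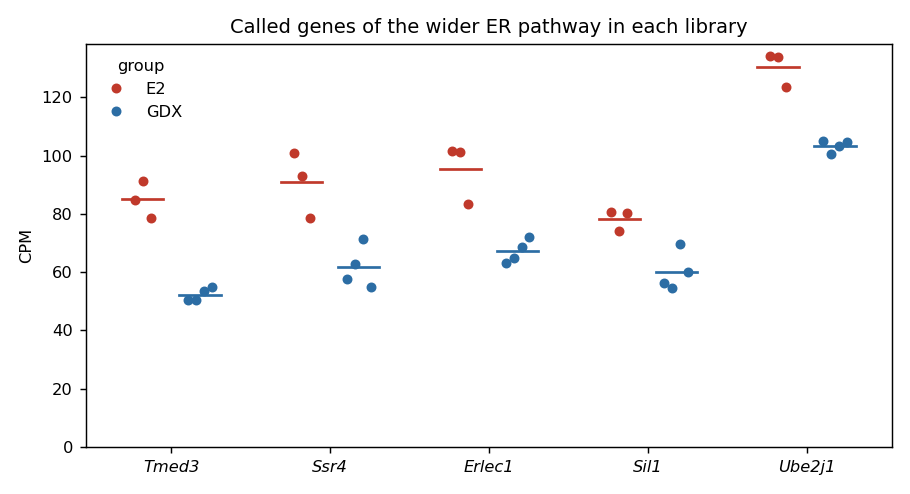
Level in CPM (axis from 0) of the 5 genes of the wider ER pathway that rose, in each library; points are libraries (E2 left, GDX right) and bars are group means. For Tmed3 the E2 libraries lie at 78.7 to 91.4 CPM and the GDX libraries at 50.3 to 54.9 CPM, and the other 4 genes also have no overlap.

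The rest of the pathway was without calls in the edgeR fit, where 3.88% of all tested genes were called. None of 19 targets of ATF4 and CHOP was called higher or lower (4 with an unadjusted p under 0.05, beside 16.8% of all tested genes). Atf3 and Atf5, stress-induced factors, were at 0.859 and 20.7 CPM in E2 and 1.11 and 20.5 CPM in GDX (adjusted p = 0.839 and 0.98). None of 14 COPI coat genes was called (2 with an unadjusted p under 0.05), with Copa and Copb1 at −0.04 and −0.01 (adjusted p = 0.892 and 0.971). DESeq2 called 2 genes of these lists lower, Phgdh (−0.74) and Copz2 (−1.29), and 1 higher, Vldlr (0.29), and limma-voom called Phgdh lower (−0.77). Phgdh, of serine synthesis, is also an astrocyte-rich transcript, and it was at 24.8, 27.7 and 31.1 CPM in E2 and at 58.7, 38.8, 31.0 and 56.4 CPM in GDX, highest in the GDX libraries with the most astrocyte markers. The part of astrocyte RNA in that difference was not tested.

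The proteases that free CREB3 and ATF6 factors were measured too. Mbtps1, which encodes S1P, averaged 109.4 ± 7.88 CPM in E2 and 112.9 ± 6.41 CPM in GDX (log2 fold change −0.05, adjusted p = 0.85). Mbtps2, which encodes S2P, averaged 16.7 ± 1.19 CPM in E2 and 19.3 ± 1.64 CPM in GDX (−0.22, adjusted p = 0.414). None of the 3 genes on that list, Scap included, was called by edgeR, DESeq2 or limma-voom. In the edgeR fit none had an unadjusted p under 0.05, beside 3.88% of all tested genes called and 16.8% under 0.05 unadjusted.

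Of 4 genes tied to CREB3L1 in other cells none was called by edgeR, DESeq2 or limma-voom. In the edgeR fit, which called 3.88% of all tested genes, 1 had an unadjusted p under 0.05, beside 16.8% of all tested genes. Pcsk1, a prohormone convertase gene, was at 81.9, 73.8 and 60.2 CPM in E2 and at 59.9, 54.1, 63.3 and 66.5 CPM in GDX, with overlap (log2 fold change 0.24, adjusted p = 0.31). Avp, the vasopressin gene, was at 22.6, 10.6 and 18.1 CPM in E2 and at 31.0, 54.3, 51.8 and 19.7 CPM in GDX (−1.19 ± 0.44, adjusted p = 0.25), a difference opposite in sign to that of Creb3l1, and Avp and Oxt summed to 61.0 to 96.4 CPM in E2 and 57.8 to 167 CPM in GDX. Without GDX replicates 1 and 4 together Avp passed as lower (−1.63, adjusted p = 0.0386). The collagen genes Col1a1 and Col1a2 were at 68.7 and 117.4 CPM in GDX replicate 4 and at no more than 7.88 and 18.0 CPM in any other library, so their differences rest on that library.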

How the data were processed

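Libraries of ribosome-bound RNA were unstranded and polyA-enriched, per the labels' protocols. The deposited table holds expected counts per gene, of which 33.1% of non-zero values are not whole. The submitters' processing notes name Trimmomatic 0.38, STAR 2.6.0a, RSEM 1.3.0 and mm10, with no roles stated, and the annotation is not given in the sources used here. Identifiers were matched to GENCODE vM21 (GRCm38), with 55203 of 55384 matched and all 42 members found. Of 130 symbols on the further pathway lists 2 were alternative names without a match.

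After rounding, the table was analysed with edgeR 4.0.16 (R 4.3.3): TMM factors, filterByExpr (minimum count 10, minimum total 15), which left 18282 genes, and the quasi-likelihood test with robust dispersions, E2 over GDX, Benjamini-Hochberg adjusted over all tested genes and called under 0.05. Log2 fold changes use a prior count of 0.125, and standard errors and 95% intervals come from the F statistic. CPM are scaled by the TMM factors. Replicates are pools, so p-values measure the spread between pools. The procedure was tested on simulated data with 200 changed genes. DESeq2 1.42.0 and limma 3.58.1 served as alternatives, beside other scaling factors, filters and dispersions, a replicate block, a covariate (mean log2 CPM of astrocyte, oligodendrocyte, microglial and endothelial markers), a threshold of 0.01, each library left out, and, chosen after seeing the data, GDX replicates 1 and 4 left out together.

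The members and all lists were chosen with earlier results of these data known. Every member is named or counted. From each further list up to 3 called genes with the largest change and the first 2 listed that did not pass are named. Bet1, Ero1l, Ero1lb, Phgdh, Copz2, Vldlr, Scap, Col1a1 and Col1a2 were named after their values were seen. Promoter windows are from RefSeq (GRCm38.p6). No reads were used here, so strand, splicing of Xbp1 and read placement were not examined.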

Additional observations from a re-analysis of the deposited data

Results flagged for a closer look

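The expression of Xbp1 in GDX replicate 3 was 136.0 CPM, apart from the other 3 GDX libraries at 113.6 to 116.9 CPM, and the gap was larger than Dixon's 95% criterion allows for 4 samples. Of 41 members examined this way it was the only one, where chance flags about 1 in 20 groups. The E2 libraries, at 113.6 to 121.7 CPM, lay at the level of the other 3 GDX libraries.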

How the results depend on the processing

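Under all 18 alternatives planned and the 1 added after seeing the data, none of the members other than Creb3l1 was called in either direction, and the log2 fold change of Creb3l1 was 3.12 to 3.31. Of 872 values of single genes under an alternative, 752 kept their direction and their side of the threshold and 29 lost a call, all among Sil1, Ssr4, Erlec1 and Ube2j1. A further 90 values of 22 uncalled genes turned in sign, none beyond 0.274 on the log2 scale, and the remaining 1 is Creb3l1 with the covariate, at 3.12 and so more than 1 SE from its reported value. Of the 128 further pathway genes, 5 rose and none fell, against 2 risen with the replicate block, 1 with the covariate, 2 at a threshold of 0.01 and 8 with limma-voom, and the fallen were 3 without the low-count filter, 3 with DESeq2, 1 with limma-voom and 1 without GDX replicates 1 and 4 together. With 1 library left out the risen were 1 to 7 (1 each without E2 replicate 1 or 2, 2 without GDX replicate 1, 3 without GDX replicate 2) and the fallen 0 to 1. Of all tested genes 467 rose and 243 fell, against 722 and 887 without the low-count filter, 224 and 96 with the covariate, 275 and 85 at a threshold of 0.01, 725 fallen with DESeq2 and 398 fallen with limma-voom, and 268 to 591 risen and 96 to 428 fallen with 1 library left out. The causes were not tested, except that a stricter threshold leaves fewer calls by construction. With the replicate number as a replicate block 421 genes rose and 191 fell, and the calls of Ssr4 (log2 fold change 0.50, adjusted p = 0.0622), Ube2j1 (0.34, 0.0576) and Sil1 (0.39, 0.0659) were lost. Same-numbered libraries did not deviate together (correlations of −0.0205, −0.0380 and −0.0555 for numbers 1, 2 and 3). No sign of pairing by number was thus seen, but so few correlations cannot exclude it. With library sizes alone the median log2 fold change of all genes was −0.0569 and that of the 40 members −0.0572. The precision is limited by 3 and 4 pools per group and, for Creb3l3, Creb3l4 and Sec16b, by low counts. The non-neuronal score did not overlap between the groups, at 5.08 to 5.34 in E2 and 5.37 to 6.14 in GDX, so the covariate and treatment cannot be told apart.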
